A study of Mus musculus with 30 samples.

Results

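MCA-970 is a primary fibrosarcoma line derived from a single tumor that had been induced in a mouse with the carcinogen MCA (3-methylcholanthrene), and the labels class it as sensitive to NK cells. Of the 30 tumors sequenced in the series, 6 were grown from this line. Their titles carry the letter W in 3 tumors (W-1D, W-2D and W-R) and the letter a in 3 (a-1D, a-2D and a-2G), and these titles alone set the groups compared here. The labels do not state what the letters mean, and no meaning was assigned to them. All 6 tumors carry the same strain label, Ncr1Cre R26DTA, on a C57BL/6 background, and the same growth label, C57BL/6 mice. Ncr1Cre R26DTA is a genotype in which Cre, expressed in NKp46+ cells, switches on diphtheria toxin A in them and so depletes NK cells. The series holds tumors grown in wild-type and in NK cell-deficient hosts, but the labels do not assign the 6 tumors to hosts, and give no ages. All belong to 1 cell line, so the comparison speaks for that line only. Hematopoietic cells had been depleted with CD45 beads before RNA extraction, so any leukocyte RNA is what remained after that step.

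The tumors held 27745104 to 43696938 counts on genes, all in 1 library run. Library indices 15 to 17 were the W tumors and 18 to 20 the a tumors, so index order and letter cannot be told apart. Levels are given as CPM, which scales counts to a common library size (with TMM over the 6 tumors), and fold changes as log2 of W over a. Fibrosarcoma markers such as collagens summed to between 47810 and 58366 CPM in every tumor, whereas Ptprc, which encodes CD45, was between 0.495 and 22.7 CPM. On the first principal component of the 500 most variable genes, which held 60.3% of their variance, W-1D and W-R lay at 31.95 and 27.74 and W-2D at -14.8, within the a range of -20.4 to -10.37. W-2D stood apart from the other 5 on the second component. The numbers of called genes and the change of Kdr are given with and without it, while most other results are given with it only.

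NK cells and the related type 1 innate lymphoid cells (ILC1) are lymphocytes that recognise tumor cells without rearranged receptors. NK cells kill through granules that hold perforin, which opens the target membrane, and granzymes, proteases that start cell death. Their activating and inhibitory receptors include NKp46 (Ncr1), NKG2D (Klrk1), CD94 (Klrd1, which pairs with NKG2 chains of the Klrc genes) and the Klra family, and their identity depends on the T-box factors T-bet (Tbx21) and Eomes.

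The promoters of 4 genes of cytotoxic lymphocytes are shown, because each of these genes was higher in every W tumor than in any a tumor. The sequences are the 250 bases before the RefSeq start on GRCm38.p6, written 5′ to 3′ on the strand of the gene, with the letters TGTGGT (the core bound by Runx factors) and AGGTGT (the core bound by T-box factors), or their reverse complements ACCACA and ACACCT, in capitals.
Gzmb, granzyme B (chr14:56262335-56262584, minus strand): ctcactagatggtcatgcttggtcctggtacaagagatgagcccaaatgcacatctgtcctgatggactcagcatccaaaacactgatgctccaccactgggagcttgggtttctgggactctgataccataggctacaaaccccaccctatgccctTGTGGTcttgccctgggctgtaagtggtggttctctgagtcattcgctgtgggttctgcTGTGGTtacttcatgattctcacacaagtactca
Prf1, perforin (chr10:61297586-61297835, plus strand): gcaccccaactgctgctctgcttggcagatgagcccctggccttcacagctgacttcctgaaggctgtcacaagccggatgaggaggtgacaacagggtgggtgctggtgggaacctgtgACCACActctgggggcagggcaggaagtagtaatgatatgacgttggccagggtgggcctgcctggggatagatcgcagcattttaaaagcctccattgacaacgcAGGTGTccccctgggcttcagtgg
Klrk1, NKG2D (chr6:129623865-129624114, minus strand): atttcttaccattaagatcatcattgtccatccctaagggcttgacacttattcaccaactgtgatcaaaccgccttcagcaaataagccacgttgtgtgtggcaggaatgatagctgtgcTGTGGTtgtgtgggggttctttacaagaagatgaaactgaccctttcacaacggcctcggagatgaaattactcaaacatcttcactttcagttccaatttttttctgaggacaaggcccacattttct
Ncr1, NKp46 (chr7:4337465-4337714, plus strand): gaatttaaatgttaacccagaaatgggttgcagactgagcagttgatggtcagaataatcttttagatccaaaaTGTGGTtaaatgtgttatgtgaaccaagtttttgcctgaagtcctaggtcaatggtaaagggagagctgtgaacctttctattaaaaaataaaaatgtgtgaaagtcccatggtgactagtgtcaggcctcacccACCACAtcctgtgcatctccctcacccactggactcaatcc

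Ncr1 was read 67, 6 and 84 times in W-1D, W-2D and W-R, that is 1.91, 0.214 and 2.53 CPM, and had no count in any of the 3 a tumors. A count of 0 allows up to 3 counts per library, or 0.0702 to 0.0910 CPM in the a tumors, so with 3 counts as the floor over the a group Ncr1 was at least 59.8-fold higher in W. All 3 W tumors were above the a tumors, and W-2D was far below both other W tumors. These limits and the ratios below cover counting error only.

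For the granzymes and perforin, as for Ncr1, W-2D was the lowest W tumor. Gzma was at 3.97, 0.428 and 3.94 CPM in W-1D, W-2D and W-R, and at 0, 0.0303 and 0.0234 CPM in a-1D, a-2D and a-2G. Gzmb was at 7.25, 0.571 and 6.62 CPM against 0.0291, 0.121 and 0.0936 CPM. In each, W-1D and W-R were high, W-2D was intermediate and the a tumors held from 0 to 4 reads. Gzmc, a granzyme that lies beside Gzmb, had the highest level among them, with 16.1, 2.25 and 23.1 CPM in W against 0.0291, 0.0303 and 0.117 CPM in a. Prf1, which encodes perforin, was at 3.54, 0.642 and 4.54 CPM against 0.0291, 0.0910 and 0.164 CPM. The groups did not overlap for any of these genes. Counts were also pooled within each letter and divided by the pooled library size. The ratio of W to a was then 228 for Gzmc, with a 95% counting interval of 110 to 568, and 30.4 for Prf1, with an interval of 16.8 to 61.7.

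**Figure D1:**
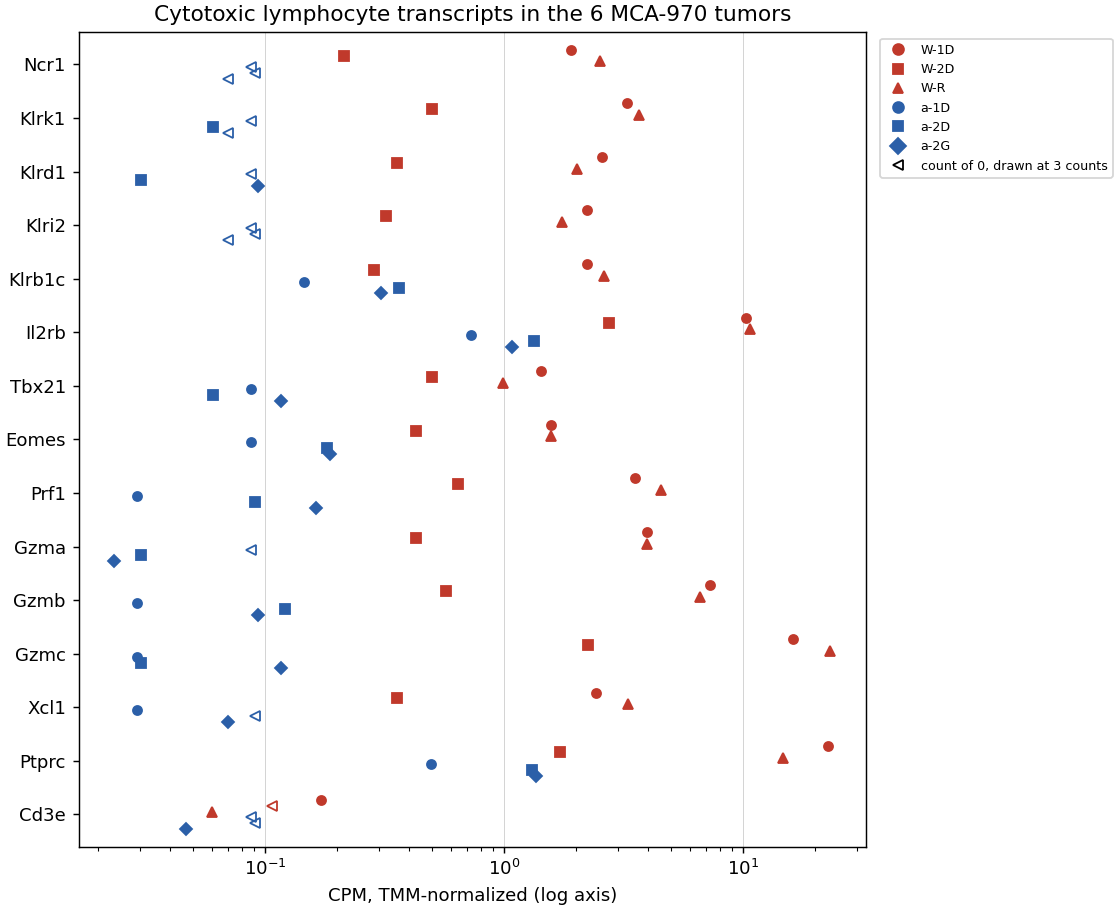
Levels of lymphocyte genes in each of the 6 MCA-970 tumors, in CPM on a log axis, with W tumors in red and a tumors in blue and a count of 0 drawn as an open triangle at the level of 3 counts. For Ncr1, Gzma and Prf1 all W tumors lie to the right of all a tumors with W-2D between, whereas Cd3e, a chain of the T-cell receptor complex, is at or below 0.171 CPM in every tumor.

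Several receptors and regulators also showed no overlap between the letters. Klrk1 was at 3.28, 0.499 and 3.67 CPM in W and at 0, 0.0607 and 0 CPM in a. Klri2, another lectin-like receptor, was at 2.23, 0.321 and 1.75 CPM in W, with no count in a, a difference of at least 55.2-fold. Tbx21 was at 1.43, 0.499 and 0.993 CPM against 0.0873, 0.0607 and 0.117 CPM. Again no W tumor reached down to the a tumors. Klrb1c, which encodes the NK1.1 antigen, was the exception among the receptors named here: W-2D, at 0.285 CPM, lay within the a range of 0.145 to 0.364 CPM, below the 2.23 and 2.62 CPM of W-1D and W-R. Among the 20 genes of the NK cell and ILC1 list, all with at least 1 count, 15 were higher in every W tumor than in any a tumor and 0 were lower in every W tumor. Over all 26875 genes with a count in the 6 tumors these shares were 5.96% and 6.15%. The 5 members whose groups overlapped were Klrb1c, Itga1, Itga2, Ccl5 and Fasl. Itga1 and Itga2, which encode the integrins CD49a and CD49b, are not restricted to lymphocytes, and Itga1 was at 59.1 to 84.3 CPM in all 6 tumors.

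Whether these differences passed a test depended on the fit. With the 6 tumors alone, edgeR's quasi-likelihood test with Benjamini-Hochberg adjustment called 1 gene of 14899 at an adjusted p-value under 0.05. That gene, Spon1, was lower in W (0.00671% of genes), and 0% were called higher, although 837 genes had an unadjusted p-value under 0.05 and a higher level in W, and 840 a lower one. For Gzma the log2 fold change was 7.01 ± 1.22 (SE), with an adjusted p-value of 0.230 by edgeR. DESeq2 on the same tumors called 201 genes, 110 of them higher in W, and limma-voom called 0. Gzma was among the 110 (adjusted p = 5.01e-06 by DESeq2), but it passed the filter through the W tumors only, so that call is no independent support. Of the 15 NK cell and ILC1 genes that passed the filter on low counts, 10 passed through the W tumors only, so no median over them is given as a result.

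When all 30 tumors were fitted together, with line and letter as 1 factor, the spread was estimated from all groups and 31 of 18404 genes were called between the MCA-970 letters. Of these, 27 were higher in W (0.147% of genes) and 4 lower (0.0217%). The filter of that fit required expression in at least 1 tumor of the series, since the smallest group holds 1. In the fit of the 6 tumors, none of these 27 genes passed the filter through the a tumors. Each passed it through the W tumors only or was not tested. Their calls, and the makeup of the 27, are thus no independent support. The 27 genes held 12 of the 20 NK cell and ILC1 genes, all 20 of which were tested. They included the granzymes Gzma, Gzmb, Gzmc and Gzmf, Prf1, Nkg7, the receptors Klrk1, Klrd1, Klre1, Klri2, Klrb1b, Klra7, Klra8, Cd96 and Il12rb2, the pseudogene Klra13-ps, the factors Tbx21 and Eomes, the chemokine Xcl1, the T-cell receptor constant gene Trbc1, and Sh2d2a, Txk, Ctsw, Ms4a4b, P2ry10 and Spn. Gzmc rose by 7.67 ± 1.00 (SE) on the log2 scale, with an adjusted p-value of 0.00099 by edgeR, and Tbx21 by 3.36 ± 0.65 (SE), with 0.0198. Ncr1 itself had an adjusted p-value of 0.0572 by edgeR in that fit.

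W-2D was the lowest W tumor for all 27 genes and above every a tumor for all 27, which were chosen by a call that used W-2D itself. Its level was between 8.23% and 41.3% of the mean of W-1D and W-R, with a median of 15.9%. Without W-2D, 97 genes were called in the fit of all 30 tumors, 28 of which were among the 31. Without W-1D, W-R, a-1D, a-2D or a-2G the number was 12, 10, 5, 9 and 13. In the fit of the 6 tumors, leaving out W-2D gave 424 calls, 246 higher in W.

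Of the 27 genes, 11 lay in a pair of gene family clusters, and the rest were spread over other places in the genome. The 8 Klr genes lay on chromosome 6 within 1492.7 kb, between 128813706 and 130306428, in the cluster of lectin-like NK receptors. Gzmb, Gzmc and Gzmf lay on chromosome 14 within 57 kb, between 56205263 and 56262260 (GRCm38). Members of both clusters are near copies of each other, and reads could be divided between them in the counting, so levels of single Klra genes and of Gzmc and Gzmf are uncertain. Of 30 Klr genes in the count table, 29 had a count, 14 were higher in every W tumor (against 5.96% of all genes with a count) and 0 were lower in every W tumor. Of the 9 granzyme genes with a count, the corresponding numbers were 5 and 0. The other 15 Klr genes overlapped, among them Klra4, the Klr gene with the highest level, at 37.6, 44.6 and 35.0 CPM in W against 38.2, 42.4 and 44.2 CPM in a. Some of the 14 had few reads, such as Klrb1 with 1, 1 and 2 in the W tumors. A 250-base RefSeq promoter was found for 20 of the 27 genes. The letters TGTGGT, on either strand, were present in any promoter of 12 of these 20 genes (60%), against 15.9% of 27025 genes. For AGGTGT the number was 3 (15%), against 13.6%. A gene could have several promoters. Gzmb, Gzmc and Gzmf, near copies in a single cluster, were all among the 12, so the 12 genes are not independent of each other. These are matches of letters and not sites.

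T cells share granzymes, perforin and several of these receptors with NK cells, and the defining markers of T cells were near 0. Cd3e had 6, 0 and 2 reads in the W tumors and 0, 0 and 2 in the a tumors, and Cd3d had at most 3 reads in any tumor. Cd8a was at 0.399, 0.0713 and 0.0602 CPM in W against 0, 0.0607 and 0 CPM. Trbc1, the exception, was at 1.26, 0.285 and 0.873 CPM against 0, 0.0303 and 0 CPM, while Trbc2 and Trac overlapped between the letters. Of the 18 T-cell genes, 6 were higher in every W tumor, among them Lck, Trbc1 and Cd3g, against 5.96% of all genes with a count, and Trbc1 was the member called in the fit of all 30 tumors. In bulk tissue fewer cells of a type and less RNA per cell cannot be told apart.

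General leukocyte and myeloid genes had their highest sums in W-1D and W-R. The 14 general leukocyte genes summed to 131 and 87.0 CPM in W-1D and W-R, but to 12.5 CPM in W-2D, which lay within the 10.2 to 18.3 CPM of the a tumors. Ptprc was at 22.7, 1.71 and 14.6 CPM in W and at 0.495, 1.30 and 1.36 CPM in a. The 24 macrophage and myeloid genes summed to 573 and 319.5 CPM in W-1D and W-R and to 51.4 CPM in W-2D, below all 3 a tumors (54.0 to 104 CPM). Csf1r, the receptor that macrophages depend on, was lowest in W-2D at 2.39 CPM, against 4.13 to 6.31 CPM in a. The sum of the NK cell and ILC1 list, to which Itga1 adds most, was 148 and 143 CPM in W-1D and W-R and 77.8 CPM in W-2D, below the 78.3 to 92.2 CPM of the a tumors. In contrast, the sum of 10 neutrophil genes was 12.9, 7.35 and 10.5 CPM in W against 2.88, 5.55 and 5.92 CPM in a, with no overlap. The sums of T-cell genes (4.64 CPM in W-2D, at most 4.19 CPM in a) and of B and plasma cell genes (1.36 CPM, at most 1.12 CPM) did not overlap either. S100a8 made up most of the neutrophil sum, at 9.42, 6.81 and 8.19 CPM in W against 2.53, 5.19 and 4.96 CPM in a. Of the 10 neutrophil genes, 8 overlapped between the letters, S100a9 among them. No gene of the general leukocyte, myeloid, neutrophil or B and plasma cell lists was called in the fit of the 6 tumors or in that of all 30. In every W tumor Itgax, H2-Ab1 and H2-Aa were above every a tumor, and H2-Ab1, an MHC class II chain of antigen-presenting cells, was at 10.5, 3.67 and 4.18 CPM against 0.756, 1.37 and 2.48 CPM. With the leukocyte score as a covariate, 51 genes were called in the 6 tumors, 36 of them higher in W, and 3 were among the 31 genes of the larger fit. The part of residual leukocytes, or of the bead depletion, in the letter difference was not tested.

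**Figure D2:**
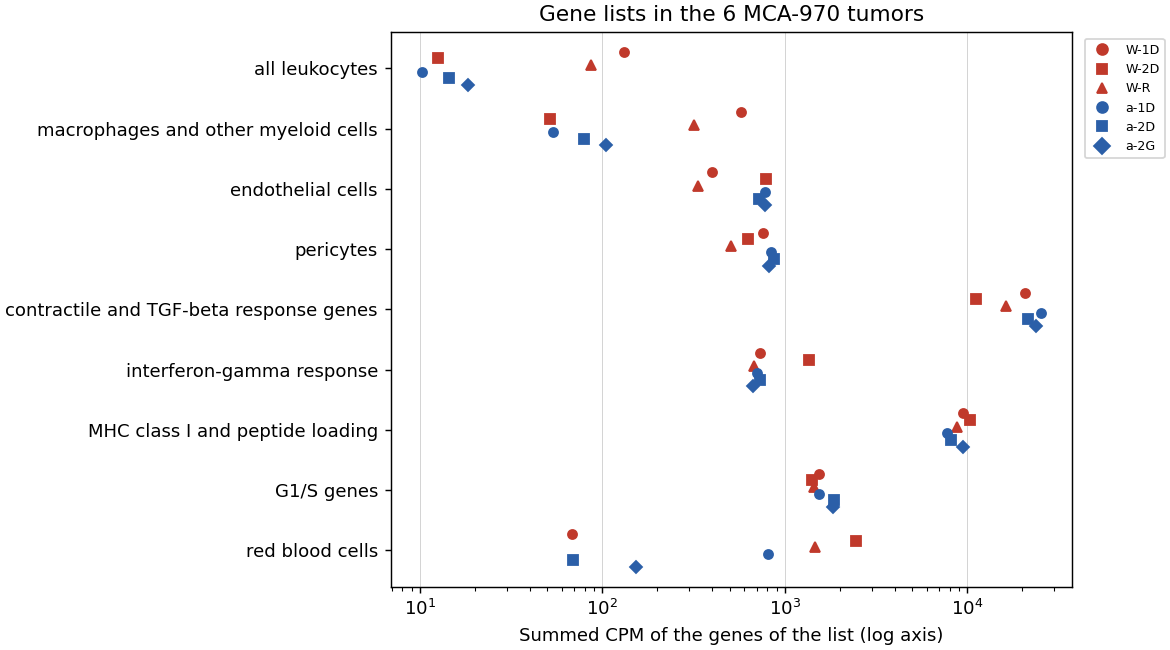
Summed levels of gene lists in each of the 6 MCA-970 tumors, in CPM on a log axis, with W in red and a in blue. W-1D and W-R lie apart from the rest for leukocyte and myeloid genes (87.0 and 131 against at most 18.3 CPM for leukocytes) and have the lowest endothelial sums, while W-2D has the highest sum of interferon-gamma response genes.

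Endothelial genes had their lowest sums in W-1D and W-R, the tumors with most leukocyte RNA. The 17 endothelial genes summed to 399.5 and 333 CPM in W-1D and W-R, to 790 CPM in W-2D and to between 724 and 780 CPM in the a tumors. Kdr, which encodes the main VEGF receptor of endothelium, was at 14.4, 40.6 and 8.31 CPM in W against 43.3, 42.7 and 45.5 CPM in a. All W tumors were below all a tumors for 7 of the 17 genes, Kdr, Tek, Emcn, Esam, Erg, Robo4 and Mmrn2, as for 8.30% of all genes tested. None was called, the median log2 fold change was -0.97 against 0.00 over all tested genes, and Kdr had an adjusted p-value of 0.522 by edgeR. Without W-2D, Kdr fell by 1.95 on the log2 scale, with an adjusted p-value of 0.00476 by edgeR. Pericytes, the contractile cells that wrap small vessels, were represented by 8 genes, of which 4 were lower in every W tumor, beside the same 8.30%. The pericyte sums were 757, 625 and 504 CPM in W-1D, W-2D and W-R against 839, 867 and 823 CPM in a, with W-2D below W-1D. Kcnj8, a potassium channel of pericytes, was at 2.51, 4.53 and 1.99 CPM against 9.80, 7.56 and 8.02 CPM (adjusted p = 0.234 by edgeR).

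Spon1, the gene called in the 6 tumors, encodes spondin-1, a secreted matrix protein, and lies on chromosome 7 between 113765998 and 114043370 (GRCm38, plus strand). It was at 16.5, 16.3 and 15.1 CPM in W-1D, W-2D and W-R and at 38.4, 55.1 and 49.9 CPM in a-1D, a-2D and a-2G. The W tumors lay close together and far below the a tumors, W-2D included. The log2 fold change was -1.58 ± 0.14 (SE, n = 3 and 3) with an adjusted p-value of 0.0331 by edgeR. The fold change lay between -1.71 and -1.46 in 15 alternatives, but 8 of them put the adjusted p-value at or above the threshold, at up to 0.949. Among these were the fit of all 30 tumors (0.599) and the fits without W-1D (0.0575), W-R (0.383), a-2D (0.170) or a-2G (0.233). Scaled over all 30 tumors, Spon1 was between 2.67 and 34.9 CPM among the a tumors of MCA-948.

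The genes next in rank by p-value were not called in the 6 tumors and are given by their levels. Below Spon1 were several genes of matrix and cell contact. Mfap5, a microfibril protein, was at 4.08, 2.71 and 4.36 CPM in W against 13.3, 17.9 and 12.4 CPM in a (adjusted p = 0.0927 by edgeR). Adam12, a metalloprotease of activated stroma, was at 15, 12.1 and 18 CPM against 39.2, 35.3 and 29.5 CPM (adjusted p = 0.136 by edgeR). Heyl, a transcription factor induced by Notch, was at 1.03, 1.28 and 0.451 CPM against 3.4, 5.37 and 4.28 CPM. The rest of the 12 with a lower level in W were Fabp5, Gpx3, Tln2, Wnt9a, Kcne4, Pcsk5, Srpx2 and Rpl39l. All 12 were below every a tumor in every W tumor, as were 8.30% of the genes tested. The 12 were picked by p-value in this same comparison, so their lack of overlap follows largely from that choice.

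On the higher side, Cd33, a sialic acid-binding receptor of myeloid cells, was at 12.6, 10.4 and 11.8 CPM in W against 5.73, 5.40 and 4.98 CPM in a (adjusted p = 0.0927 by edgeR). Tnfrsf9, which encodes the costimulatory receptor 4-1BB, was at 75.3, 82.7 and 74.0 CPM against 45.7, 47.9 and 51.5 CPM (adjusted p = 0.0967 by edgeR). W-2D was close to the other W tumors for Cd33 and slightly above them for Tnfrsf9. Cyp26b1, which degrades retinoic acid, was at 43.0, 62.9 and 58.4 CPM against 26.8, 19.5 and 23.6 CPM. Ucp2, a mitochondrial carrier, was at 18.2, 15.8 and 23.6 CPM against 8.93, 5.70 and 5.66 CPM. The others of the 12 were AW112010, Unc93b1, Sirpa, Bmp7, Resf1, Fam84a, Pltp and Tlr2, with all W tumors above all a tumors, as for 7.94% of the genes tested. These 12 were also picked by p-value in this comparison, from which their lack of overlap largely follows.

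**Figure D3:**
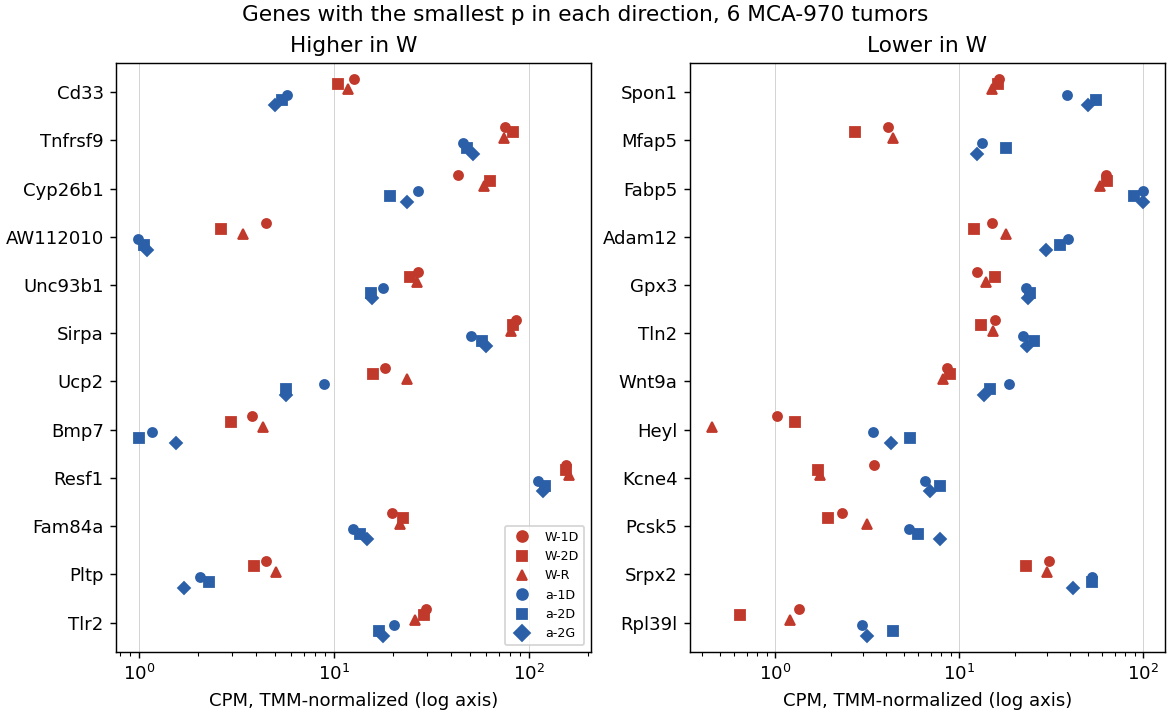
Levels of the 12 genes with the smallest p-values in each direction in the 6 MCA-970 tumors, in CPM on a log axis, with W in red and a in blue. No gene shows overlap between the letters, which follows largely from the choice by p-value, and only Spon1 passed the adjusted threshold in the fit of these 6 tumors.

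Of the 4 genes lower in W in the fit of all 30 tumors, Slc1a3, a glutamate transporter, was at 0.200, 0.0713 and 0.120 CPM against 0.931, 2.52 and 1.15 CPM (adjusted p = 0.0131 by edgeR). Acan, the cartilage proteoglycan aggrecan, was at 1.17, 0.0713 and 0.241 CPM against 2.15, 8.77 and 2.64 CPM (adjusted p = 0.0438 by edgeR). Both had low levels with no overlap between the letters, Slc1a3 with 7, 2 and 4 reads in W, and Slc1a3 overlaps another annotated gene on its own strand. In the fit of the 6 tumors, Slc1a3, Acan and Hdx passed the filter through the a tumors only, and Lipk was not tested. The calls and the lack of overlap of these 4 genes are thus no independent support. The others were Lipk and Hdx, at most 1.31 CPM in any of the 6 tumors. Hdx overlaps a gene on the opposite strand, and the strand setting of the counting is not given in the sources used here.

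Interferon-gamma is the main cytokine released by NK cells, and its response genes include guanylate-binding proteins and MHC class I. Of 27 response genes, 7 were higher and 1 lower in every W tumor, against 5.96% and 6.15% of all genes with a count. None was called, and the median log2 fold change over the 25 tested was 0.61. W-2D had the highest level, since the list summed to 731, 1359 and 679 CPM in W-1D, W-2D and W-R against 667 to 732 CPM in a. The sums of W-1D and W-R thus lay within the a range. Gbp5 was at 13.5, 35.8 and 11 CPM against 7.45, 9.62 and 8.54 CPM (adjusted p = 0.435 by edgeR). MHC class I and peptide loading genes present peptides to T cells and engage inhibitory NK receptors, and 8 of 17 were higher in every W tumor, as for 7.94% of all genes tested. H2-D1 was at 1313, 1904 and 1324 CPM against 1000, 944 and 1245 CPM (adjusted p = 0.401 by edgeR). H2-Q4 was at 275, 495 and 290 CPM against 202, 209 and 253 CPM. W-2D was highest in both, and no member was called. Type I interferon response genes had 6 of 29 members higher in every W tumor, beside the same 7.94%, with a median log2 fold change of 0.39.

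Ligands that NK cells recognise on tumor cells were not called either. Raet1e, a ligand of NKG2D, was at 2.63, 2.82 and 1.84 CPM in W against 4.04, 5.19 and 4.82 CPM in a (adjusted p = 0.269 by edgeR), and Raet1d was at 3.77, 1.39 and 3.13 CPM against 7.19, 5.73 and 5.80 CPM (adjusted p = 0.364 by edgeR). These and H60b were lower in every W tumor, and 1 of the 14 ligand genes found in the table, Clec2d, was higher, against 6.15% and 5.96% of all genes with a count. The Raet1 and H60 genes are families of near copies. Cd274, which encodes PD-L1, was at 7.25, 13.8 and 4.82 CPM against 3.78, 4.61 and 5.96 CPM, with overlap. Cd47, a signal that restrains macrophages, was at 228, 290 and 234 CPM against 226, 172 and 164 CPM. Its receptor Sirpa was among the 12 genes of smallest p-value with a higher level in W.

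Among chemokines, 2 of 18 were higher in every W tumor and 5 lower, against 5.96% and 6.15% of all genes with a count, and none was called. Ccl9, which attracts myeloid cells, was at 9.07, 4.28 and 6.38 CPM against 2.36, 2.64 and 2.71 CPM (adjusted p = 0.230 by edgeR). Cxcl14 was at 3.28, 1.46 and 2.35 CPM against 5.99, 8.83 and 14.1 CPM (adjusted p = 0.243 by edgeR). Ccl11, which attracts eosinophils, was below 1 CPM in all W tumors, at 0.885, 0.856 and 0.963 CPM, and at 1.6, 2.94 and 3.86 CPM in a.

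No gene of the cell cycle, cholesterol synthesis or contraction lists was called. The median log2 fold change was -0.28 over 22 G1/S genes, -0.25 over 24 G2/M genes and -0.32 over 22 cholesterol synthesis genes, against 0.00 over all genes tested. Of these, 8, 2 and 5 were lower in every W tumor, beside 8.30% of all genes tested, and the other 22 G2/M genes overlapped between the letters. The G2/M sums of W-1D and W-2D, 1671 and 1721 CPM, were above the 1623 CPM of a-1D. Mcm6, a subunit of the replicative helicase, was at 161, 145 and 156 CPM against 172, 192 and 197 CPM (adjusted p = 0.375 by edgeR). The 18 contractile and TGF-beta response genes had a median of -0.39, and 7 were lower in every W tumor. Acta2, smooth muscle actin, was at 212, 97.4 and 152 CPM against 260, 281 and 289 CPM (adjusted p = 0.400 by edgeR). Myc was at 108, 117 and 101 CPM against 163, 148 and 141 CPM (adjusted p = 0.229 by edgeR). Hypoxia and glycolysis genes, p53 targets and resident fibroblast genes had medians between -0.06 and 0.07. None of the genes of neutrophils, B and plasma cells, keratinocytes, skeletal muscle, adipocytes and Schwann cells was called. Red blood cell genes split the tumors in another way, with Hbb-bs, a beta-globin, at 49.8, 1689 and 982 CPM in W against 559, 51.6 and 116 CPM in a.

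Of 11 genes that the study named from these tumors in comparing NK-sensitive with non-sensitive lines, none was called between the letters. The filter on low counts left 10 of them. Vsir, which encodes the checkpoint protein VISTA, was at 12, 8.92 and 8.70 CPM against 7.83, 5.61 and 6.69 CPM (adjusted p = 0.379 by edgeR). Rasa4 was also higher in every W tumor and Pcdhga5 lower. The groups overlapped for Plet1, Tnfsf11, Ifitm1, Pcdhgb2, Pcdhgb7, Pcdh17, Ntm and Musk. The list was chosen on tumors that include these 6 and is no independent evidence.

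The same letters occur in MCA-948 and MCA-969, with 4 W and 4 a tumors each, and levels across lines are given after TMM scaling over all 30 tumors. The runs are less balanced there: all 4 W tumors of MCA-948 were in run 3, with 2 a tumors in run 2 and 2 in run 3, while 2 W tumors of MCA-969 were in run 2 and its other 6 tumors in run 1. Ncr1 had no count in the 4 a tumors of either line. It was at 0.153 to 1.08 CPM in the W tumors of MCA-948 and at 0.0269 to 0.182 CPM in those of MCA-969, against 0.225 to 2.62 CPM in MCA-970. Gzma was at 2.88 ± 2.11 CPM (SD, n = 3) in the W tumors of MCA-970, at 0.569 ± 0.400 (SD, n = 4) in those of MCA-948 and at 0.386 ± 0.356 (SD, n = 4) in those of MCA-969, and at most 0.0316 CPM in any a tumor of the 3 lines. The W ranges of Gzma in these 3 lines overlapped. Those of Ncr1 overlapped between MCA-970 and MCA-948, but not between MCA-970 and MCA-969. MCA-943 also carries both letters, with 1 W and 3 a tumors, all in run 3. Its W tumor held Gzma at 6.71 CPM and Ncr1 at 3.25 CPM, above every MCA-970 tumor. Its a tumors held Gzma at 0.632 to 1.05 CPM and Ncr1 at 0.0372 to 0.315 CPM, so they were not at 0 as the a tumors of MCA-970 were for Ncr1. With 1 W tumor, MCA-943 was not compared further.

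**Figure D4:**
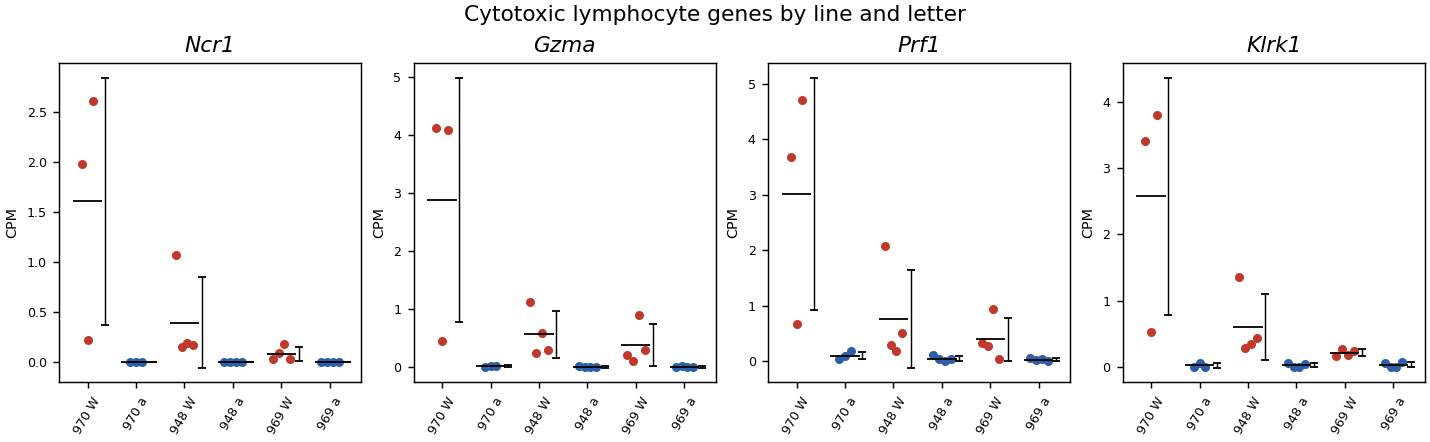
CPM of Ncr1, Gzma, Prf1 and Klrk1 in each tumor of MCA-970, MCA-948 and MCA-969 by letter, with points for tumors, a line at the mean and bars of 1 SD. In each of these 3 lines the mean is higher in W than in a for all 4 genes, and among the 3 lines the W tumors of MCA-970 reach the highest levels, up to 4.12 CPM for Gzma.

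Of the 27 genes higher in W in MCA-970, all 27 had positive letter fold changes in MCA-948, where 47.6% of genes did, and 26 in MCA-969, where 49.2% did. Taken alone, 10 of them were called higher in W in MCA-948 (0.114% of genes) and 1 in MCA-969 (0.0163%). The letter effect of MCA-970 did not differ by test from that of MCA-948 or of MCA-969 for any of the 27, with smallest adjusted p-values of 0.38 and 0.15 by edgeR. A p-value of that size does not show that the effects were alike.

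The letter effect of MCA-970 differed from that of MCA-948 in 5 genes (0.0272%) and from that of MCA-969 in 2 (0.0109%), by the interaction of line and letter in the fit of all 30 tumors. For Cdh11, Dmd, Tmem159 and Serpini1 the effect was small in MCA-970, with log2 fold changes of 0.22, 0.41, 0.17 and 0.32. In MCA-948 these were -2.36, -1.47, -1.65 and -0.99. For Hdx the larger effect was in MCA-970, at -1.62 against 0.57 in MCA-948. Cdh11, a cadherin of mesenchymal cells, was at 493 ± 73 CPM (SD, n = 3) in W and 415 ± 94 (SD, n = 3) in a in MCA-970, and at 2.75 ± 0.81 and 14.1 ± 3.0 (SD, n = 4 each) in MCA-948. The difference was 2.58 ± 0.36 (SE) on the log2 scale, with an adjusted p-value of 0.00328 by edgeR, and 2.45 with an adjusted p-value of 0.0199 with library run as a covariate. Its level in MCA-948 was far below that in MCA-970 under either letter. Dmd, which encodes dystrophin, was at 20.8 ± 4.0 CPM in W and 15.3 ± 0.7 in a in MCA-970 (SD, n = 3 each), and at 0.661 ± 0.113 and 1.88 ± 0.45 in MCA-948 (SD, n = 4 each), a difference of 1.88 ± 0.30 (SE). It remained called with the run as covariate (adjusted p = 0.0252 by edgeR), whereas Serpini1 (0.0514), Tmem159 (0.0554) and Hdx (0.0720) did not. For MCA-969 the genes were Wnt10a, a Wnt ligand, and Crip1, and neither was called with the run as covariate (adjusted p = 0.173 by edgeR for both). Wnt10a was at 5.80 ± 1.33 CPM in W and 3.63 ± 0.19 in a in MCA-970 (SD, n = 3 each), and at 16.1 ± 3.2 and 31.3 ± 5.5 in MCA-969 (SD, n = 4 each).

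**Figure D5:**
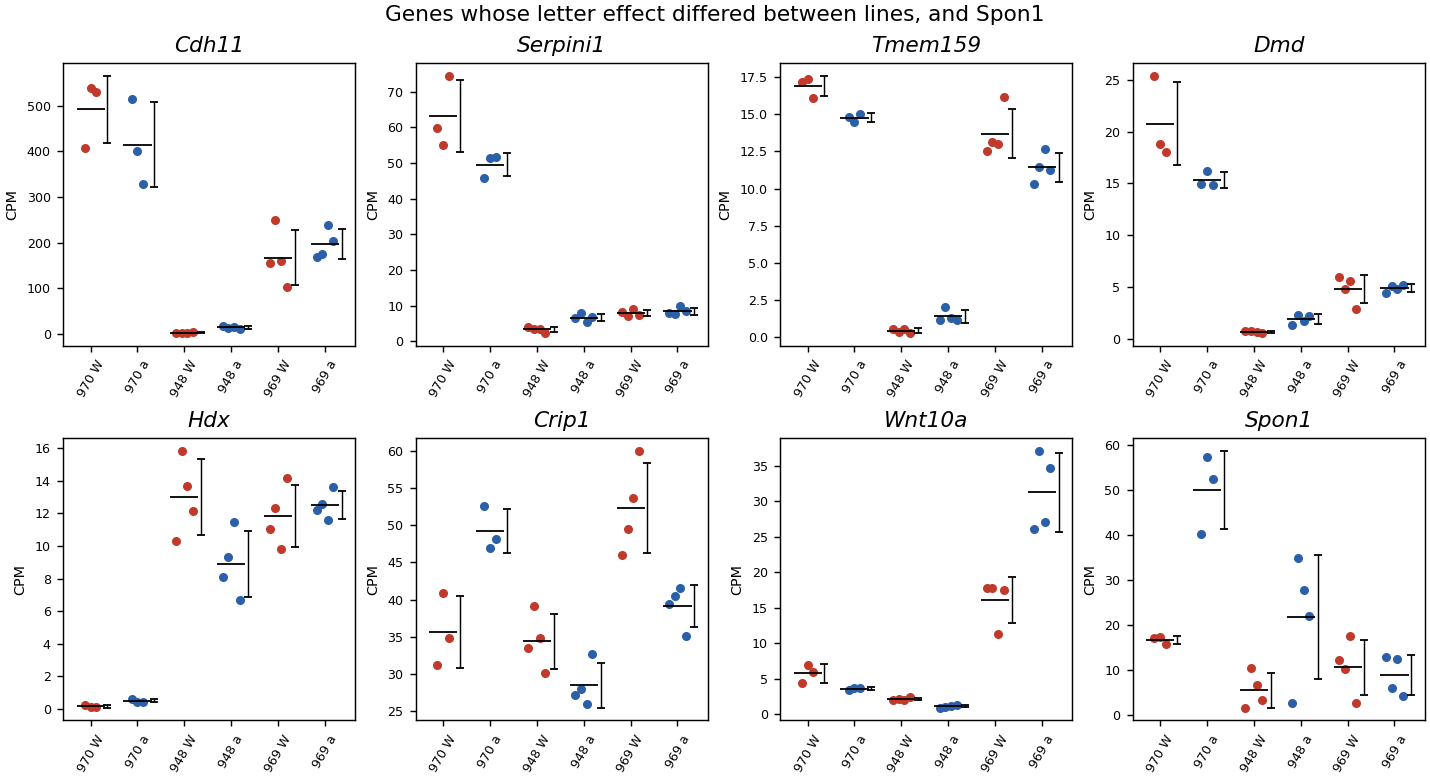
CPM in each tumor of MCA-970, MCA-948 and MCA-969 by letter for the 7 genes whose letter effect differed from that in MCA-970, and for Spon1, with points for tumors, a line at the mean and bars of 1 SD. In MCA-948 all W tumors lie below all a tumors for Cdh11 and Dmd, and Spon1 in MCA-970 shows no overlap between the letters.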

How the data were processed

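RNA of 30 tumors was sequenced. Per the labels, the authors used STAR 2.5.3a for alignment (GRCm38), Picard, and featureCounts 1.5.2 for reads per gene, and names of the counted alignments mention duplicate removal by molecular identifiers. The deposited values are raw counts without normalization for 48440 genes, of which 48058 were named with GENCODE mouse release 21. Strand setting and multi-mapping options are not given in the sources used here. Columns of the 30 tumors were matched to the labels by their description. No column held another sample.

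Counts were scaled by TMM, filtered with filterByExpr by letter and tested with edgeR 4.0.16 (robust quasi-likelihood, R 4.3.3) in the 6 MCA-970 tumors. The biological coefficient of variation was 0.159. DESeq2 1.42.0, limma-voom (limma 3.58.1), a fit of all 30 tumors, other filters and scalings, a block by title code (1D, 2D), a leukocyte score and leaving out each tumor were alternatives. Benjamini-Hochberg adjusted p-values under 0.05 were called. Nothing in the labels states separate animals, so p-values measure the spread between these tumors. With 3 against 3, an exact permutation test cannot go below 0.1. Tumors of 1 letter differed by a chi-square of at least 23.6 per gene, far beyond sampling noise, so none was treated as a duplicate.

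Named genes were, per direction, the 12 called genes with the largest fold change, filled by the smallest p-values, with a mean of at least 1 CPM, then up to 4 genes of each list, with the defining markers of cell types, and the genes the study named. Genes called in the fit of all 30 tumors, those of the differences between lines and any other named gene were chosen after their values were seen. Some genes are not reported here by name. Members and lists were chosen with earlier results of these data known. The fits were tested on simulated data. There the fit of the 6 tumors recovered 10 of 200 genes changed by 1 on the log2 scale, and 194 of 200 changed by 2. Only genes with many counts were changed, so genes with few counts were not covered. Figures were drawn with matplotlib 3.10.9 in Python 3.11.15.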

Additional observations from a re-analysis of the deposited data

Results flagged for a closer look

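The letter effect, W minus a on the log2 scale, of 7 genes differed in MCA-970 from that in another line by the interaction test in edgeR. Against MCA-948 the differences were 2.58 for Cdh11, 1.88 for Dmd, 1.82 for Tmem159, 1.31 for Serpini1 and -2.19 for Hdx. Against MCA-969 they were 1.61 for Wnt10a and -0.90 for Crip1. When each MCA-970 tumor was left out in turn, Cdh11, Dmd and Tmem159 were called in 6 of 6 fits and Serpini1 in 5, while Wnt10a was called in 2, and Hdx and Crip1 in 1 each. In fits of only the lines compared, Cdh11 was called (adjusted p = 0.0128 by edgeR) and the other 6 were not, with Dmd at 0.0515. Library run was divided unevenly between the letters in MCA-948 and MCA-969, and its part in these differences was tested only as a covariate. The sums of the general leukocyte list and of the NK cell and ILC1 list were examined in the 4 groups of 4 tumors. For the NK cell and ILC1 list, MCA-948 W-1D was at 41.2 CPM, against 20.1 to 24.4 CPM in the other W tumors of that line. MCA-969 W-2D was at 26.5 CPM, against 42.6 to 50.5 CPM in the other W tumors of that line. Among the W tumors of MCA-969, Ncr1 was at most 0.182 CPM and Gzma at most 0.909 CPM, so these genes made up little of such sums. With 4 tumors per group such a check can find only extreme values, so no conclusion is drawn from it. The MCA-970 groups were not part of it.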

How the results depend on the processing

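The number of genes called between the MCA-970 letters, 1 in the 6 tumors, was 201 with DESeq2, 0 with limma-voom, 108 without a filter on low counts, 31 in the fit of all 30 tumors, 0 in the 10 tumors of the library run, 51 with the leukocyte score as a covariate and 0 at an adjusted p under 0.01. With a replicate block by title code it was 0. The codes 1D and 2D occur under both letters, but the deviations of same-coded tumors from their letter means correlated at -0.337 and -0.114, and the labels do not say that a code marks a shared animal or day, so the tumors were not treated as pairs. Leaving out each tumor gave 0 to 424 calls, the 424 without W-2D. In the fit of all 30 tumors the number was 10 at an adjusted p under 0.01 and 5 to 97 when each MCA-970 tumor was left out, alternatives chosen after seeing the data. The difference from MCA-948, 5 genes, was 47 with DESeq2, 1 with only both lines and 3 to 6 with tumors left out. The difference from MCA-969, 2 genes, was 1 with a difference of at least 1, 116 with DESeq2, 0 with the run as covariate, 0 with only both lines and 0 to 71 with tumors left out. DESeq2's size factors in edgeR and a mean of at least 1 CPM left the first count at 1. Of 178 named genes, 161 kept the sign of their fold change in 15 alternatives.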
